A study of Mus musculus with 8 samples.

Results

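The inter-alpha-trypsin inhibitor family was followed in mouse liver through 6 genes, the heavy chain genes Itih1, Itih2, Itih3, Itih4 and Itih5 and the light chain precursor gene Ambp. They were taken by name from a table of 45706 genes, and all 6 were among the 14645 genes with enough reads to be tested. RNA-seq libraries came from the livers of 4 C57BL/6 mice of genotype HuR KO and 4 C57BL/6 mice of genotype HuR WT, with 1 library for each mouse, so that each replicate is an animal of its own. The gene Elavl1 encodes HuR, a protein that binds RNA. The deleted exons, the cells in which they were deleted, any Cre driver, and the age of the mice are not given in the sources used here.

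Inter-alpha-trypsin inhibitors are plasma complexes made mainly by hepatocytes. Ambp encodes a precursor that is cut into alpha-1-microglobulin, a small haem-binding protein, and bikunin, a Kunitz-type protease inhibitor that carries a chondroitin sulfate chain. The products of Itih1, Itih2 and Itih3 are bound to that chain through ester bonds, and in tissues they are passed on to hyaluronan by the enzyme TSG-6, which stabilises hyaluronan-rich matrix. The products of Itih4 and Itih5 are related in sequence; that of Itih4 is a plasma protein that is not joined to bikunin, and Itih5 is expressed widely outside the liver, also by stromal cells. In human hepatocytes the mRNAs of ITIH3 and ITIH4 are known to rise in the acute phase response.

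The 3 genes Itih4, Itih3 and Itih1 lie side by side on mouse chromosome 14 (mm10; Itih4 from 30886476 to 30901981 on the plus strand, Itih3 from 30908573 to 30923760 and Itih1 from 30929180 to 30943289 on the minus strand). The gaps between them are 6592 and 5420 bp. Itih2 (chromosome 2, 10094593 to 10131396, minus strand) and Itih5 (chromosome 2, 10153571 to 10256529, plus strand) point away from each other across 22175 bp, and Ambp stands alone on chromosome 4 (63143275 to 63154799, minus strand). All are protein-coding genes, and no other gene of the table overlaps any of them. The start regions of the chromosome 14 genes are shown because Itih3 was called between these neighbours and Itih4 and Itih1 were not; each holds 250 bases before and 50 bases after a RefSeq start site (build GRCm38.p6, promoter entries matched for 6 of 6 members). Capitals mark matches, searched on both strands, to TTCNNNGAA (STAT type), TTGCNNAA (C/EBP type), GTTAAT (part of the site of the liver factor HNF1) and TGTTTNC (FOXA type), and matches to TATAAA on the gene's own strand.
Itih3, chr14:30923538-30923837, minus strand: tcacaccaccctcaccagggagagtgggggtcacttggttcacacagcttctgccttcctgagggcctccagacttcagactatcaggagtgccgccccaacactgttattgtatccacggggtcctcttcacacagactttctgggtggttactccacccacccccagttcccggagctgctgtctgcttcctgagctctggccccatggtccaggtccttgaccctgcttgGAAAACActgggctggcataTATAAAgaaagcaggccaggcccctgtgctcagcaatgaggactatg
Itih4, chr14:30886226-30886525, plus strand: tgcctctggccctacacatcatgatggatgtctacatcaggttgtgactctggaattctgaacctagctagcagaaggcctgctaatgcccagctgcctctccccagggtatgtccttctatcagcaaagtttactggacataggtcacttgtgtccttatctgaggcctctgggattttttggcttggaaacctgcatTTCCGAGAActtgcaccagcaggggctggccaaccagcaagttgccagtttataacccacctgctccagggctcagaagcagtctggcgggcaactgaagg
Itih1, chr14:30943240-30943539, minus strand: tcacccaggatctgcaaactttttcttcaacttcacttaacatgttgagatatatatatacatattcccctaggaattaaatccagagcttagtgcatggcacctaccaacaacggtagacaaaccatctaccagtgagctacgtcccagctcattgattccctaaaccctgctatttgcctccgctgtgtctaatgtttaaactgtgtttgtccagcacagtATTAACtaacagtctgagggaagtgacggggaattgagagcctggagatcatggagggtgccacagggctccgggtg
In the Itih3 window a FOXA-type match began at position −17 and TATAAA at position 3, counting the start base as 0. The window's start base is 30923587, inside the gene as it was counted, which reaches 30923760. The Itih4 window held a STAT-type match at −51 and the Itih1 window an HNF1-type match at −27. No 2 of these 3 windows shared a motif, and no marked match overlapped another. The window of Ambp, which was not called, also held a FOXA-type match, at −16. That of Itih2 held a C/EBP-type match at −33, and that of Itih5 held no match. Among 27025 RefSeq windows of the same length, TGTTTNC was found in 20.5%, TATAAA in 8.88%, TTCNNNGAA in 8.47%, GTTAAT in 7.2% and TTGCNNAA in 10.8%, so that single matches are common.

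Total gene counts were between 18649618 and 31249286 per library, and the members other than Itih5 were counted 13299 times or more in every library, so counting error is small beside the spread between animals. Levels are CPM, a gene's reads scaled to a common library total, after TMM (trimmed mean of M values) scaling. Calls rest on edgeR's quasi-likelihood test with Benjamini-Hochberg adjustment over all tested genes and a threshold of 0.05. Elavl1 was at 50.02 ± 4.33 CPM in KO livers and 41.97 ± 6.405 CPM in WT livers (SD, n = 4 each; edgeR adjusted p = 0.258). This gene-level count is not lower in the libraries labelled KO, and it cannot check the genotype labels because the deleted part is not given. The animal numbers in the titles form 2 series of unstated meaning, 98 to 100 (2 KO and 1 WT mice) and 4-digit numbers (2 KO and 3 WT mice). The sum of 8 bile duct markers was between 165 and 264 CPM in KO livers, against 44.02 to 71.2 CPM in WT livers. The sum of 6 hepatocyte markers was between 106300 and 129200 CPM in KO livers, against 117800 to 133200 CPM in WT livers. Most of the first sum came from Spp1 and most of the second from Alb. All 8 bile duct markers were called higher, against 2.32% of all tested genes. None of the 6 hepatocyte markers was called. Their log2 fold changes ran from −0.24 (Apoh, no overlap between the groups) to 0.15 (Trf). WT replicate 3, from the 1 WT mouse numbered 98 to 100, stood apart from the other WT livers. Without it the counts of called genes rose, whereas they fell with any other library left out, as given under the dependence on processing. In whole liver, fewer cells of a type and less RNA per cell cannot be told apart.

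Itih3 was the 1 member of the family that was called. It rose 1.48-fold in KO livers, while Itih1, Itih2, Itih4 and Ambp had fold changes between 0.96 and 1.06 and Itih5, at a much lower level, had 1.32. Of 6 members 1 was called higher and 0 lower, against 2.32% and 1.37% of all tested genes (3.69% in either direction). With DESeq2 4.19% and with limma-voom 2.04% of tested genes were called higher, and Itih3 was past the threshold with DESeq2 (adjusted p = 0.00334) but not with limma-voom. At an unadjusted p under 0.05 there were 2 members, Itih3 and Itih5, against 18.0% of all tested genes. Only Itih3 had no overlap between the groups among the 6, against 11.2% of all tested genes.

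**Figure D1:**
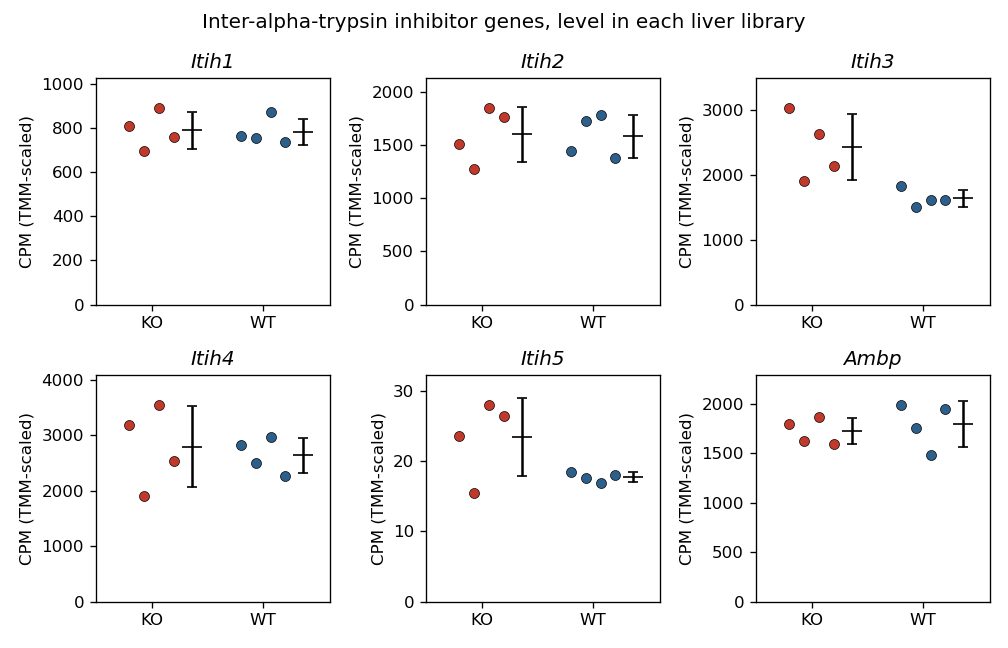
TMM-scaled CPM of each family gene (vertical axes from 0) in the 4 KO libraries, left, and the 4 WT libraries, right; points are livers in order of replicate number, and bars give the mean ± SD. The KO points of Itih3, from 1906 to 3040 CPM, all lie above the WT points, of which the highest is 1827 CPM, whereas the groups overlap for the other 5 genes.

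Itih3 encodes the heavy chain that joins bikunin to form pre-alpha-inhibitor. It was counted at 3040, 1906, 2638 and 2148 CPM in KO replicates 1 to 4, against 1827, 1503, 1612 and 1617 CPM in WT replicates 1 to 4. Every KO liver lay above every WT liver, but the margin between KO replicate 2 and WT replicate 1 was small, and the KO livers differed more among themselves (1.6-fold from lowest to highest) than the WT livers (1.22-fold). The log2 fold change was 0.57 (SE 0.14, edgeR adjusted p = 0.0412, unadjusted 95% interval of the fold change 1.2 to 1.83). The exact two-sided permutation test of log2 CPM gave p = 0.0286, the smallest that 4 against 4 libraries allow. Any gene without overlap between the groups gets this p, so it adds nothing to the lack of overlap. For the other members the same test, unadjusted, gave p from 0.143 (Itih5) to 0.971 (Itih2). Within the 4-digit animals the log2 fold change was 0.59, and among the animals numbered 98 to 100, with a single WT liver, it was 0.57. With the number series as covariate it was 0.58 (edgeR adjusted p = 0.025), and without WT replicate 3 it was 0.56 (adjusted p = 0.0321). The size of the difference was thus alike in both series, but the adjusted p lay close to the threshold. The call was lost when KO replicate 1, 3 or 4 or WT replicate 1, 2 or 4 was left out (adjusted p from 0.0559 to 0.138, log2 fold change from 0.44 to 0.63), with a stricter low-count filter (0.0514), without robust estimation (0.0527), with limma-voom (0.053) and within the 4-digit animals (0.109).

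Among abundant genes such a call was uncommon. Of 1347 genes with a mean of at least 100 CPM, 12, or 0.891%, were called higher in KO livers, and Itih3 was one of them. The limit of 100 CPM was chosen after the values were seen, so this share is a description. By mean CPM over all libraries Itih3 ranked 52 among all genes of the table. Itih4 ranked 36, Ambp 66, Itih2 70, Itih1 144 and Itih5 5677.

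Itih1 and Itih2 encode the heavy chains that, together with bikunin, form inter-alpha-inhibitor. Itih1 was counted at 811, 698, 892 and 758 CPM in KO replicates 1 to 4, against 765, 756, 871 and 738 CPM in WT replicates 1 to 4. The groups covered the same range, with a log2 fold change of 0.01 (SE 0.11, edgeR adjusted p = 0.97) and an interval of the fold change from 0.857 to 1.19. Itih2 was counted at 1511, 1277, 1848 and 1767 CPM in KO replicates 1 to 4, against 1447, 1728, 1780 and 1373 CPM in WT replicates 1 to 4. Here too the groups overlapped, with a log2 fold change of 0.02 (SE 0.14, adjusted p = 0.968) and an interval from 0.826 to 1.24. These intervals do not contain the 1.48-fold value of Itih3, though smaller changes in either direction are within them.

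Itih4 encodes a plasma protein cleaved by kallikrein. It was counted at 3188, 1909, 3548 and 2544 CPM in KO replicates 1 to 4, against 2832, 2494, 2960 and 2266 CPM in WT replicates 1 to 4. KO livers held both the 2 highest values and the lowest, and the WT livers lay between them. The SD was 724 CPM in KO livers and 317 CPM in WT livers, and the log2 fold change was 0.08 (SE 0.17, adjusted p = 0.851, interval of the fold change 0.823 to 1.37).

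Ambp was counted at 1796, 1622, 1866 and 1594 CPM in KO replicates 1 to 4, against 1986, 1750, 1480 and 1945 CPM in WT replicates 1 to 4. All KO livers lay within the range of the WT livers. The log2 fold change was −0.06 (SE 0.12, adjusted p = 0.853), with an interval of the fold change from 0.804 to 1.147, so that a fall of about the size of the Itih3 rise is outside the interval.

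Itih5, the member with the lowest level, was counted at 23.6, 15.5, 28.0 and 26.4 CPM in KO replicates 1 to 4, against 18.5, 17.6, 16.9 and 18.0 CPM in WT replicates 1 to 4. KO replicates 1, 3 and 4 lay above every WT liver and KO replicate 2 below every WT liver, while the WT livers were tightly grouped. The log2 fold change was 0.40 (SE 0.15, adjusted p = 0.184), so Itih5 was not called. Without KO replicate 2 it was called, with a log2 fold change of 0.54 (edgeR adjusted p = 0.0204). The log2 fold change was 0.12 within the 4-digit animals and 0.69 among those numbered 98 to 100. Because Itih5 is expressed by stromal cells, markers of stellate cells and fibroblasts are given beside it. Of 10 such markers 4 rose (Col1a1, Cygb, Lum and Col3a1), 0 fell, and none was at 0. Over all tested genes 2.32% rose and 1.37% fell. The other 6 were not called, with log2 fold changes of 0.54 (Des), 0.50 (Pdgfrb), 0.27 (Reln), 0.24 (Dcn), 0.16 (Lrat) and 0.06 (Ngfr). Of these, Des, Pdgfrb and Dcn had no overlap between the groups, against 11.2% of all tested genes. The summed level of all 10 markers was between 469 and 556 CPM in KO livers, against 386 to 425 CPM in WT livers. Their part in the Itih5 values was not tested.

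**Figure D2:**
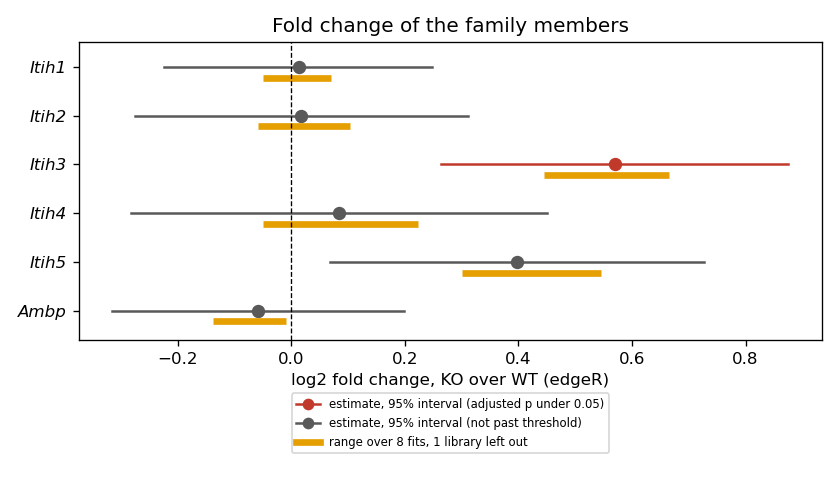
Log2 fold change of KO over WT livers for each family gene (points) with its unadjusted 95% interval (thin lines) and the range over the 8 fits that each leave out 1 library (thick bars). The point of Itih3 at 0.57 lies above those of Itih1, Itih2, Itih4 and Ambp, whose intervals span 0. The interval of Itih3 overlaps those of Itih2, Itih4 and Itih5, and differences between members were not tested. The interval of Itih5 lies above 0, but its edgeR adjusted p is 0.184.

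KO replicate 2 was the lowest of the KO livers for each of the heavy chain genes, from Itih1 to Itih5, and for Itih1, Itih2, Itih4 and Itih5 it was also the lowest of all 8 livers. For Ambp it was not the lowest, which was WT replicate 3. The whole family took 1.04%, 0.775%, 1.1% and 0.911% of all gene counts in KO replicates 1 to 4, against 0.888%, 0.801%, 0.845% and 0.769% in WT replicates 1 to 4. These shares overlapped, at 0.955% ± 0.143 in KO livers and 0.826% ± 0.0518 in WT livers (SD, n = 4 each).

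Per kilobase of exon, which allows levels of different genes to be set side by side, Ambp was the most abundant family transcript. In KO livers the order was Ambp (1220 ± 93.7 CPM per kb), Itih4 (843 ± 218), Itih3 (669 ± 139), Itih2 (483 ± 78.3), Itih1 (240 ± 25.0) and Itih5 (2.96 ± 0.703). In WT livers it was Ambp (1271 ± 164 CPM per kb), Itih4 (795 ± 95.4), Itih2 (477 ± 61.0), Itih3 (451 ± 37.3), Itih1 (238 ± 18.3) and Itih5 (2.25 ± 0.0876; SD, n = 4 each). Itih3 thus stood above Itih2 in all 4 KO livers, whereas in WT livers the order of Itih2 and Itih3 differed from liver to liver, their means lying within their spread. Itih4 lay above Itih3 in every liver, though in KO livers their means lay within their spread. As a share of the family's counts per kilobase, Itih3 made up 19.3% ± 1.93 in KO livers and 13.9% ± 0.646 in WT livers, and Ambp 35.6% ± 3.24 in KO livers and 39.3% ± 4.62 in WT livers.

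**Figure D3:**
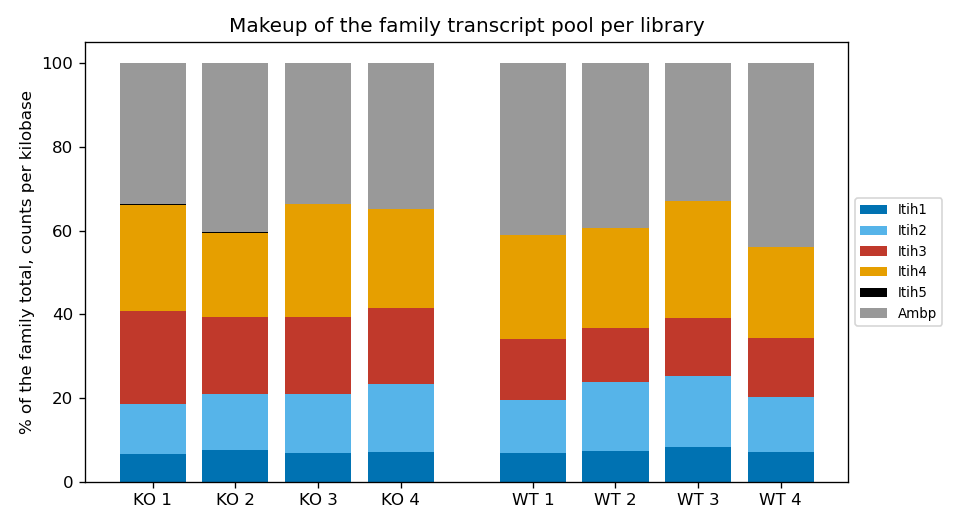
Share of each family gene in the family's summed counts per kilobase (vertical axis, %), with 1 bar for each KO liver, left, and each WT liver, right. The Itih3 segment takes 18.1% to 22.1% in KO livers and 13.1% to 14.6% in WT livers; Itih5 is too small to be seen at this scale.

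A ratio within a library does not depend on how libraries are scaled to each other, and the 5 Itih genes were therefore also set against Ambp, whose bikunin product carries the heavy chains of Itih1, Itih2 and Itih3. Transcripts of Itih3 per transcript of Ambp (counts per kilobase) were 0.656, 0.455, 0.548 and 0.522 in KO replicates 1 to 4, against 0.357, 0.333, 0.422 and 0.322 in WT replicates 1 to 4. The groups did not overlap, the KO ratio being 1.52-fold that of WT livers (log2 difference 0.60, SE 0.14; exact permutation p = 0.0286, the smallest possible, and p = 0.143 after Benjamini-Hochberg adjustment over the 5 ratios compared). For Itih1, Itih2, Itih4 and Itih5 the ratios to Ambp overlapped, with log2 differences of 0.06, 0.06, 0.11 and 0.42 and exact permutation p of 0.771, 0.771, 0.629 and 0.0857. WT replicate 3 had the highest ratio among the WT livers for all 5 heavy chains, and for Itih1, Itih2 and Itih4 the highest of all 8.

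**Figure D4:**
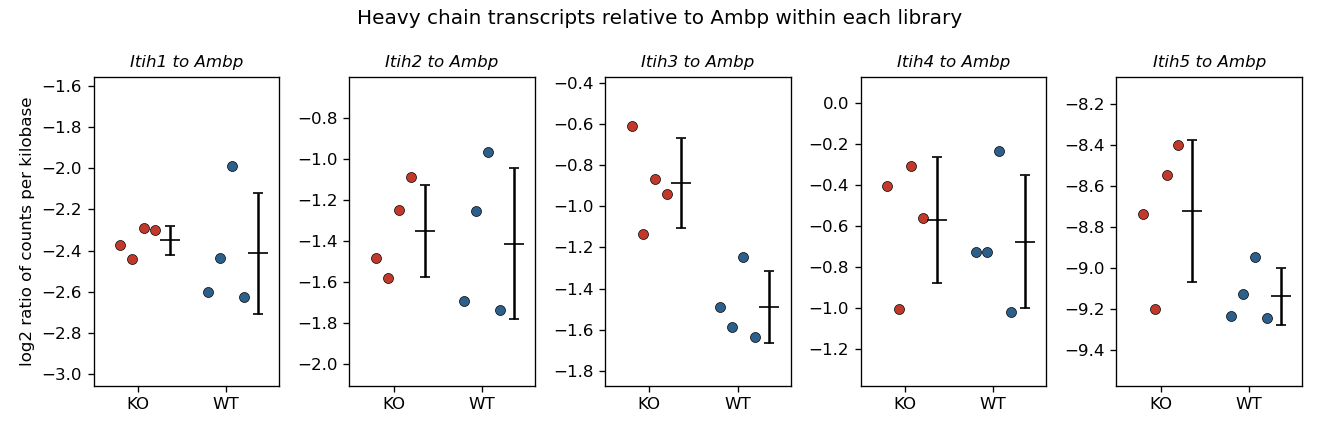
Log2 ratio of each heavy chain to Ambp in counts per kilobase, KO livers left and WT livers right in each panel; points are livers, bars the mean ± SD, and all panels span the same number of log2 units. The groups are separate for Itih3, at a mean of −0.89 in KO livers and −1.49 in WT livers, and overlap in the other panels.

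Itih3 was also set against the genes on either side of it. The ratio of Itih3 to Itih4 per kilobase was between 0.678 and 0.911 in KO livers, against 0.497 to 0.651 in WT livers. That of Itih3 to Itih1 was between 2.47 and 3.39 in KO livers, against 1.68 to 2.16 in WT livers. Neither ratio overlapped between the groups. Itih3 was set against these neighbours with its call known, so these ratios are a description and were not tested. Beyond the family, 12 other genes of the table lie within 100 kb of these 3 genes. Of the 8 that were tested, 1 was called, Mustn1, a small nuclear protein gene of muscle and bone that lies 4868 bp from Itih4. It was at 6.77, 6.07, 7.96 and 8.57 CPM in KO replicates 1 to 4, against 4.34, 4.07, 4.395 and 4.603 CPM in WT replicates 1 to 4, with all KO livers above all WT livers (log2 fold change 0.76, SE 0.17, edgeR adjusted p = 0.0235). Over all tested genes, 3.69% were called in either direction. Around Itih2 and Itih5, 3 other genes were tested and 0 called. Around Ambp, 3 were tested and 2 called higher, the kinesin gene Kif12 (4.28 ± 0.499 CPM in KO livers and 0.9749 ± 0.392 CPM in WT livers, log2 fold change 2.10, SE 0.30, adjusted p = 0.00185) and the fibrillar collagen gene Col27a1 (22.7 ± 5.08 CPM in KO livers and 11.3 ± 2.23 CPM in WT livers, log2 fold change 0.9989, SE 0.17, adjusted p = 0.00684; SD, n = 4 each), both expressed far below Ambp.

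**Figure D5:**
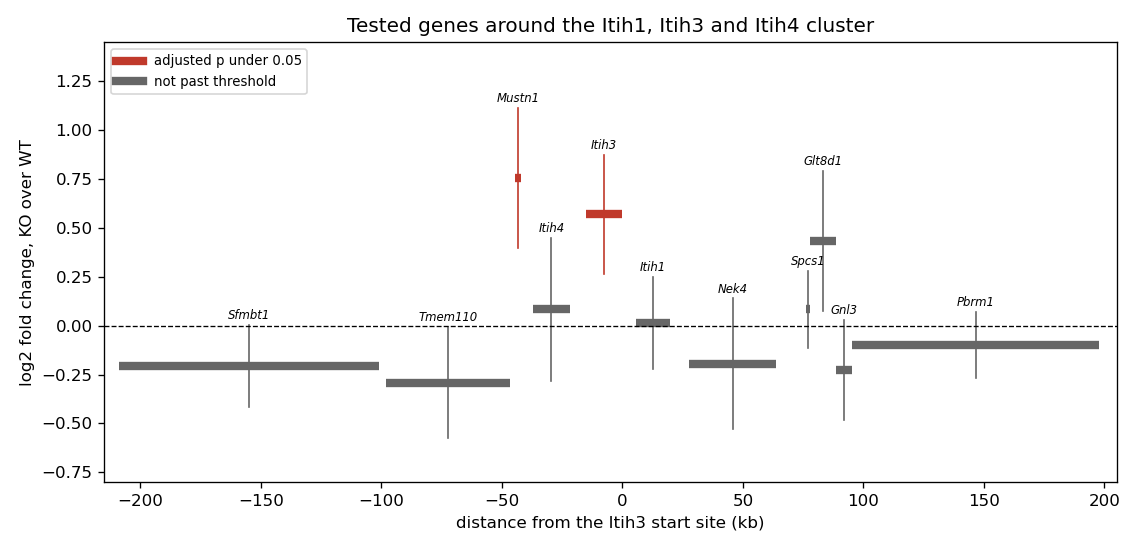
Log2 fold change of KO over WT livers for the tested genes around Itih3, placed by distance from its start site in kb; thick bars span each gene and thin lines give the unadjusted 95% interval. Itih3 at 0.57 and Mustn1 at 0.76 passed the threshold, and Itih4 between them had 0.08.

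The genes whose values over the 8 livers were most like those of each member were ranked by the root-mean-square difference of mean-centred log2 CPM. For Itih3 they were Sspn and Wtip, at 0.116 and 0.117, both low-level genes that were not called themselves (1.8 and 2.1 CPM on average in WT livers). For Itih2 they were Slc38a3, a glutamine transporter gene of hepatocytes, and Cp, which encodes the plasma copper protein ceruloplasmin, at 0.0641 and 0.0658, and for Itih4 they were Cadps2 and Serpina3n, an acute phase serpin gene, at 0.109 and 0.111. Itih1 was nearest to Zdhhc17 and Man2a2 (0.0395 and 0.0431), Itih5 to Zfp39 and Mafk (0.0824 and 0.0915), and Ambp to Tmem82 and Wdr89 (0.0457 and 0.0488). Within the family the closest pair was Itih1 and Itih2, at 0.129, where the median distance to all compared genes was 0.243 for Itih1 and 0.291 for Itih2. Itih3 lay 0.223 from Itih5 and 0.292 to 0.366 from the other members, against a median of 0.405 to all compared genes. Ambp lay 0.188 from Itih1 and 0.266 to 0.346 from the other members, and these 4 distances exceed its median of 0.256.

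HuR is known to bind AU- and U-rich stretches, mostly in 3′ untranslated regions, so these were searched in the GENCODE M21 transcript of each member with the longest coding sequence, for ATTTA, TTATTTATT and TTTNTTT on the transcript's strand (an ATTTA lies within each TTATTTATT). The regions of Ambp (100 bases), Itih3 (111), Itih2 (161), Itih1 (330) and Itih4 (649) held no match to any of them. They are shorter than the median of 965 bases over 12752 tested genes, 65.8% of which hold an ATTTA. Among tested genes within 20% of its length the share with an ATTTA was 17.3% for Itih3, 15.2% for Ambp, 25.3% for Itih2, 37.1% for Itih1 and 58.6% for Itih4. The region of Itih5, of 4946 bases, held 10 ATTTA and 12 TTTNTTT, where genes of like length held a median of 8 and 15. The ATTTA site nearest the stop codon and the pair nearest the 3′ end are shown as they are the family's examples of the motif, in capitals (chromosome 2, plus strand, positions 461, 4473 and 4830 of the region).
Itih5 site 1: ttccaaggtcATTTAcattgaggcc
Itih5 site 9: aatgttaaatATTTAttttagcctg
Itih5 site 10: atgcacaaatATTTAccattgtgtt
These letters are a description of the annotated transcripts, and binding of HuR was not measured here.

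Genes that act on the same complexes were described by 5 lists, beside the tested genes as a whole. Of all tested genes 340 (2.32%) rose and 201 (1.37%) fell, with a median log2 fold change of −0.0045. An unadjusted edgeR p under 0.05 was found for 18.0% of all tested genes. Of 19 genes that make, bind or degrade hyaluronan, the partner to which the heavy chains are passed, 9 were tested and 0 were called by edgeR, DESeq2 or limma-voom, with 2 at an unadjusted edgeR p under 0.05 (median log2 fold change 0.15). The smallest p were those of Hapln4, a hyaluronan link protein gene, at 13.7 ± 0.89 CPM in KO livers and 9.7 ± 2.19 CPM in WT livers (log2 fold change 0.49, adjusted p = 0.0981), and of the scavenger receptor gene Stab1 (0.24, adjusted p = 0.242). Tnfaip6, the gene of TSG-6, was not among the tested genes for lack of reads. Of 18 genes that build the chondroitin sulfate chain, 17 were tested and 0 were called by any of these tools, with 3 at an unadjusted p under 0.05 (median 0.07). The smallest p there were those of Csgalnact2, which starts chondroitin chains, at 12.1 ± 1.12 CPM in KO livers and 15.2 ± 1.87 CPM in WT livers (log2 fold change −0.33, adjusted p = 0.182), and of the sulfotransferase gene Chst15 (0.30, adjusted p = 0.19).

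Of 12 genes of Kunitz-type inhibitors, the family to which bikunin belongs, 6 were tested and 1 rose (median 0.15). That gene was Spint1, which encodes an inhibitor of the hepatocyte growth factor activator, at 2.94, 4.54, 4.12 and 4.47 CPM in KO replicates 1 to 4, against 0.583, 0.329, 0.661 and 1.17 CPM in WT replicates 1 to 4 (log2 fold change 2.58, SE 0.34, edgeR adjusted p = 0.000902). All KO livers lay above all WT livers, at levels far below that of Ambp. Of 7 furin-type convertases, the class of protease that cuts the Ambp and heavy chain precursors, 5 were tested and 0 were called by any of the 3 tools, with 1 at an unadjusted p under 0.05 (median −0.08) and the smallest p for Pcsk5 (log2 fold change −0.37, adjusted p = 0.25) and Pcsk6 (−0.10, adjusted p = 0.679). Of 20 genes of IL-6 type signalling and of liver transcription factors, 18 were tested and 1 rose (median 0.04). That gene was Foxa3, a forkhead factor of hepatocytes, at 55.4, 57.1, 57.3 and 67.9 CPM in KO replicates 1 to 4, against 43.6, 28.65, 50.3 and 36.1 CPM in WT replicates 1 to 4 (log2 fold change 0.58, SE 0.15, adjusted p = 0.048). Its groups did not overlap either, and its call was closer to the threshold than that of Itih3. No gene of this list was called when KO replicate 1, 3 or 4 or WT replicate 1, 2 or 4 was left out, with limma-voom or with the stricter filter, whereas 2 were called with DESeq2, with total counts only and with the replicate number as a block.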

How the data were processed

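Unnormalised counts of reads per gene were deposited for 8 liver libraries. Per the file headers, the authors made these counts with featureCounts 1.5.1 against Ensembl 81 genes on mm10, with strand setting 2 and a minimum mapping quality of 1, without options to count reads assigned more than once. Per the submitters' processing notes, GSNAP aligned the reads. Of 45706 gene identifiers, 45143 matched a symbol; 92 spike-in rows held at most 0 counts and were left out.

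Genes were kept by filterByExpr (minimum count 10), scaled by TMM and compared by the quasi-likelihood test of edgeR 4.0.16 in R 4.3.3 over all 14645 kept genes, KO over WT; SEs come from the F statistic. The step was tested on simulated counts. All pairs of libraries differed by more than counting error (smallest chi-square per degree of freedom 16.8). For ratios, exact permutation tests (two-sided) were used (scipy 1.17.1).

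Alternatives were other scalings and filters, DESeq2 1.42.0, limma-voom (limma 3.58.1), a replicate block, the animal number series and leaving out each library. Named were all members, called list genes (up to 4 a list, otherwise the 2 with the smallest p), tested genes within 100 kb and the 2 genes of nearest pattern. Neighbours that were not called are named in the plot only. The members and lists were chosen with earlier results of these data known; the level limit of 100 CPM and the motifs were chosen after the values were seen. The pairing check of replicate numbers stands under the dependence on processing.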

Additional observations from a re-analysis of the deposited data

How the results depend on the processing

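Itih3 kept its direction in all 20 alternatives and was past the threshold in 9 of the 19 that gave a test (log2 fold change 0.44 to 0.66, adjusted p from 0.00141 to 0.138). It was not called with the stricter filter (log2 fold change 0.58), without robust estimation (0.57), with limma-voom (0.55) or in the 4-digit animals (0.59). The cause was not tested. The fit of the 4-digit animals used fewer libraries, and the effect of this on the call was not tested either. Leaving out 1 library gave Itih3 0.44 to 0.66, Itih5 0.30 to 0.54, Itih1 −0.0499 to 0.0693, Itih2 −0.0586 to 0.10, Itih4 −0.0497 to 0.22 and Ambp −0.14 to −0.0093. Directions near 0 turned for Itih1 with the number series as covariate (−0.0267), for Itih2 with that covariate (−0.0702) and in the 4-digit animals (−0.12), and for Ambp with total counts only (0.0046). Among the animals numbered 98 to 100 Itih1 was at −0.0832, Itih5 at 0.69 and Ambp at 0.22.

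Over all genes, 219 were called higher with the stricter filter, 215 in the 4-digit animals, 416 with the number series as covariate and 613 with DESeq2. Called lower were 123 with total counts only, 328 with no filter, 308 with the number series as covariate and 495 with DESeq2. Leaving out 1 library gave 151 to 710 higher and 71 to 534 lower, both the most without WT replicate 3 and the fewest without WT replicate 2. Of the 5 lists 2 genes were called, 0 with the stricter filter (which removes Spint1, under 1 CPM in WT livers, while Foxa3 stays in the fit and is not called), 1 with limma-voom and 1 to 3 with 1 library left out.

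The log2 difference of the Itih3 to Ambp ratio was 0.70 in the 4-digit animals and 0.51 to 0.68 with 1 library left out, where the smallest possible p are 0.2 and 0.0571. The other ratios gave −0.0082 to 0.20 (Itih1), −0.045 to 0.21 (Itih2), −0.0079 to 0.25 (Itih4) and 0.31 to 0.57 (Itih5). The family's share of counts was 0.129 percentage points higher in KO livers, and 0.0818 to 0.189 with 1 library left out.

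With the replicate number as a block, Itih3 had a log2 fold change of 0.55 (adjusted p = 0.0327), 353 genes were called higher and 211 lower, and the Itih3 to Ambp ratio kept 0.60, with an exact p of 0.125, the smallest that 4 pairs allow. Deviations of same-numbered livers correlated at 0.0255, 0.0251, 0.122 and −0.147, so the numbers were not taken to pair the animals. Over all pairs of a KO and a WT liver the correlations followed the animal number series instead. They were positive within a series, up to 0.222 (KO replicate 4 with WT replicate 3). Between the series they were negative, down to −0.200 (KO replicate 2 with WT replicate 3). Reads mapping to several places were left out. With 4 livers a group, changes of Itih1, Itih2, Itih4 or Ambp that lie within their intervals are not excluded.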

Other observations

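Socs3, the feedback inhibitor gene of IL-6 type signalling, was chosen for mention after its values were seen. It was at 22.45, 10.6, 18.6 and 24.0 CPM in KO replicates 1 to 4, against 8.24, 5.75, 11.3 and 10.8 CPM in WT replicates 1 to 4. KO replicates 1, 3 and 4 lay above every WT liver, whereas KO replicate 2 lay within the WT range, and this was also the KO liver with the lowest level of each of the 5 Itih genes. The log2 fold change of Socs3 was 1.07 (SE 0.28, edgeR adjusted p = 0.0677), and it was not called. A relation between Socs3 and the Itih genes was not tested.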
